A study of Mus musculus with 12 samples.

Results

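Genes of cholesterol synthesis, control, export and efflux were examined in RNA from mouse colorectal cancer tissue growing in the liver. The list names 31 genes, and a gene was followed where an array row carried its symbol and no other. That left 28 genes of the 22180 with such a row: 18 of 20 synthesis enzymes, 5 of 5 genes of the control system and sterol transfer, and 5 of 6 genes of storage, lysosomal export, efflux and receptor turnover. The expression of Acat2, Idi1 and the storage gene Soat1 was not analysed here. All 28 passed the filter on dim genes, and 13286 genes passed it in all.

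The 12 arrays fall into 4 groups of 3, which are 3 mice a group per the design text. These are tumours grown in fatty liver under anti-VEGF, tumours grown in healthy liver under anti-VEGF, tumours grown in fatty liver under vehicle, and tumours grown in healthy liver under vehicle. Every tumour is colorectal cancer placed in the liver by injection, and anti-VEGF is the antiangiogenic treatment of the design text. Neither the labels nor the design text name the strain, age or sex of the mice, the cells injected, the way the liver was made fatty or the dose. The samples are pieces of tissue rather than sorted cells, so every value below is an average over tumour cells and all other cells of the piece.

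Cells make cholesterol from acetyl units by way of mevalonate, farnesyl pyrophosphate, squalene and lanosterol. The transcription factor SREBP2, encoded by Srebf2, switches on nearly every enzyme of this route when sterols in the endoplasmic reticulum run low. Scap escorts SREBP2 to the Golgi, where proteases release its active part, and the Insig proteins hold Scap back when sterols are plentiful. Surplus sterol is read by a different set of factors, the liver X receptors, which switch on Abca1 and Abcg1, the pumps that pass cholesterol out to apolipoproteins and lipoprotein particles, and Mylip, the ubiquitin ligase that sends lipoprotein receptors to degradation. Npc1 and Npc2 move cholesterol out of the lysosome. Macrophages that take up lipid are well known for high Abca1 and Abcg1.

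Promoter sequences are shown for enzymes of the route and for an efflux gene whose values moved the other way. The 250 bases before a start site were found in RefSeq, build GRCm38.p6, for 25 of the 31 listed genes, Acat2, Idi1 and Soat1 among them. Fdps, Fdft1, Sqle, Stard4, Npc1 and Abcg1 had no such sequence here and are left out of the motif counts. A gene with several start sites counts where any of its windows holds a motif. A CCAAT box, the letters CCAAT on either strand and the binding site of NF-Y, a partner of SREBP2, stood in 16 of 17 enzymes with a sequence, or 94.1%, against 37.5% of 27025 mouse genes and 39.4% of the 10410 tested genes that had one. It also stood in 3 of 4 control genes and in 3 of 4 genes of storage, export, efflux and turnover, Mylip, Npc2 and Soat1. The GC box, the letters GGGCGG on either strand and a site for Sp1, stood in 15 of the 17 enzymes, or 88.2%, against 35.4% of all genes and 61.1% of tested ones. It also stood in 4 of 4 control genes and in 3 of 4 genes of storage, export, efflux and turnover. The sterol regulatory element was searched as TCACNCCAC on either strand. That string was found in 1 of the 17 enzymes, Hmgcs1, where it begins 137 bases before the start, and in 1.23% of all mouse genes. Other forms of the element were not searched, so the count cannot show which enzymes lack one. The liver X receptor site, searched as AGGTCA, any 4 bases and AGGTCA again on either strand, was found in none of the 25 genes. It was found in 4 of all genes and in 0 of the 10410 tested ones. A string that rare cannot show whether a gene, Abca1 included, holds another form of the site. These matches describe letters in the window and are not measured binding sites. The windows below, written 5′ to 3′ on the gene's strand, are those of Hmgcs1, of the 3 enzymes with the smallest adjusted p under vehicle, and of Abca1. Capitals mark CCAAT or its complement ATTGG, and in Hmgcs1 also the TCACNCCAC match. The Abca1 window holds no CCAAT, unlike those of Mylip, Npc2 and Soat1.
Hmgcs1, chr13:119690101-119690350, plus strand: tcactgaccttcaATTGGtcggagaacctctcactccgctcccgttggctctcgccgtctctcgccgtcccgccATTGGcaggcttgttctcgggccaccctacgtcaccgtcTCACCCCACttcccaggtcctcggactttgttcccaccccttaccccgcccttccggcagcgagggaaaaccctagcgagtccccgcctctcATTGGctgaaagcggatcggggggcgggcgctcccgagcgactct
Cyp51, chr5:4104698-4104947, minus strand: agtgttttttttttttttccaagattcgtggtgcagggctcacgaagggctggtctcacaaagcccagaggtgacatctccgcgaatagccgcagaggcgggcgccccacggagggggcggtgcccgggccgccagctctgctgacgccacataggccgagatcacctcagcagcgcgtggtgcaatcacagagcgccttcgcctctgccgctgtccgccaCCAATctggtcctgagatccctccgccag
Sc5d, chr9:42264301-42264550, minus strand: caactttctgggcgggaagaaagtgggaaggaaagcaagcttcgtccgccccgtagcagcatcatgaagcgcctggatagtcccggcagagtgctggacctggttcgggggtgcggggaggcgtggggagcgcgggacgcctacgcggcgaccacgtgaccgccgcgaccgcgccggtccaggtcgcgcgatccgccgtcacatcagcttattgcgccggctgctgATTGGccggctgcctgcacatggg
Msmo1, chr8:64733579-64733828, minus strand: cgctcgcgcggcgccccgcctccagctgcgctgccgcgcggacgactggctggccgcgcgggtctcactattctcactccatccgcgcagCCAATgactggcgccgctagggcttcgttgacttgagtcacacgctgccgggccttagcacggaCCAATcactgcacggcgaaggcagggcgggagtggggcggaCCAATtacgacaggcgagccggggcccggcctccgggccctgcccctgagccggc
Abca1, chr4:53159896-53160145, minus strand: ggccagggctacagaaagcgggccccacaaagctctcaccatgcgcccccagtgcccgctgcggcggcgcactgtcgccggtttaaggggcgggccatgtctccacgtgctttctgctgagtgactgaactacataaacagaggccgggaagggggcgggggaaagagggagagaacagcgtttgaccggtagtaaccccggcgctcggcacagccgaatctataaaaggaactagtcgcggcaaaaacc

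Several arrays stood apart from, or unusually close to, others of their group. Over all tested genes, the SD of the difference was 0.163 between arrays 1 and 3 of the fatty liver vehicle group, 0.148 to 0.156 among all 3 arrays from healthy liver under anti-VEGF, and 0.163 between arrays 1 and 3 of the healthy liver vehicle group. Every other pair within a group differed by 0.391 to 0.636. The labels call all arrays biological replicates, so the fits use 12. Calls of enzymes and efflux genes between livers are also given with nearly alike arrays averaged, which leaves 8 units and a single one for healthy liver under anti-VEGF. That single unit is then assumed to vary like the other groups. Whether nearly alike arrays are separate mice, pools or repeat runs was not tested. The same 4 vehicle arrays had Xist at 10.58 and 10.45 in fatty liver and at 8.10 and 8.43 in healthy liver, against 4.32 or less on all other arrays. Vehicle array 2 was therefore unlike its companions in both livers. The p-values assume that the 3 mice of a group are independent. Markers of hepatocytes were low, with 10 of 14, Alb and Apob among them, above the dim-gene limit on no array. Of 16 markers of gut epithelium and colorectal tumour, 9, Epcam and Krt20 among them, were above that limit on no array, and Cdh1, Krt8, Krt18 and Cldn3 were above it on all 12.

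Under vehicle, the synthesis enzymes were lower and the efflux genes higher in tumours of fatty liver than in tumours of healthy liver. Of the 18 enzymes, 14 fell in limma's fit across all tested genes (Benjamini-Hochberg adjusted p under 0.05), none rose and 4 did not pass. In the same comparison 30.4% of all tested genes fell, 19.2% rose and 49.6% were called in either direction. The median log2 difference of the 18 enzymes was -0.66, and that of all tested genes was -0.12. On the arrays themselves 14 enzymes lay lower on all 3 fatty liver arrays than on any healthy liver array, a pattern seen in 37.2% of all tested genes. With nearly alike arrays averaged no enzyme passed, and 721 of all tested genes did.

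Cyp51 removes the first methyl group of lanosterol and had the smallest adjusted p of the enzymes. It stood at 8.30, 8.16 and 8.22 on the 3 fatty liver vehicle arrays, against 9.21, 8.72 and 9.02 on the healthy liver vehicle arrays, all values on the deposited log2 scale. The groups did not overlap, and array 2 was the lowest in each. Cyp51 averaged 8.23 ± 0.07 in fatty liver and 8.98 ± 0.25 in healthy liver (SD, n = 3 each), 1.68-fold lower in fatty liver (log2 difference -0.75 ± 0.14 SE, limma adjusted p = 0.00208).

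Sc5d places a double bond in the sterol ring late in the route. Its values were 9.95, 9.68 and 10.09 in fatty liver and 10.58, 10.43 and 10.61 in healthy liver under vehicle, again without overlap. The log2 difference was -0.63 ± 0.13 (SE, limma adjusted p = 0.00284). Msmo1 oxidises methyl groups at another ring position and stood at 9.76, 9.45 and 9.74 in fatty liver, against 10.45, 10.03 and 10.45 in healthy liver. It fell by 0.66 on the log2 scale (limma adjusted p = 0.00455), and its lowest healthy liver array was still above every fatty liver array. After such averaging the differences were -0.70 for Cyp51, -0.66 for Sc5d and -0.64 for Msmo1, with adjusted p of 0.0889, 0.0854 and 0.103.

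**Figure D1:**
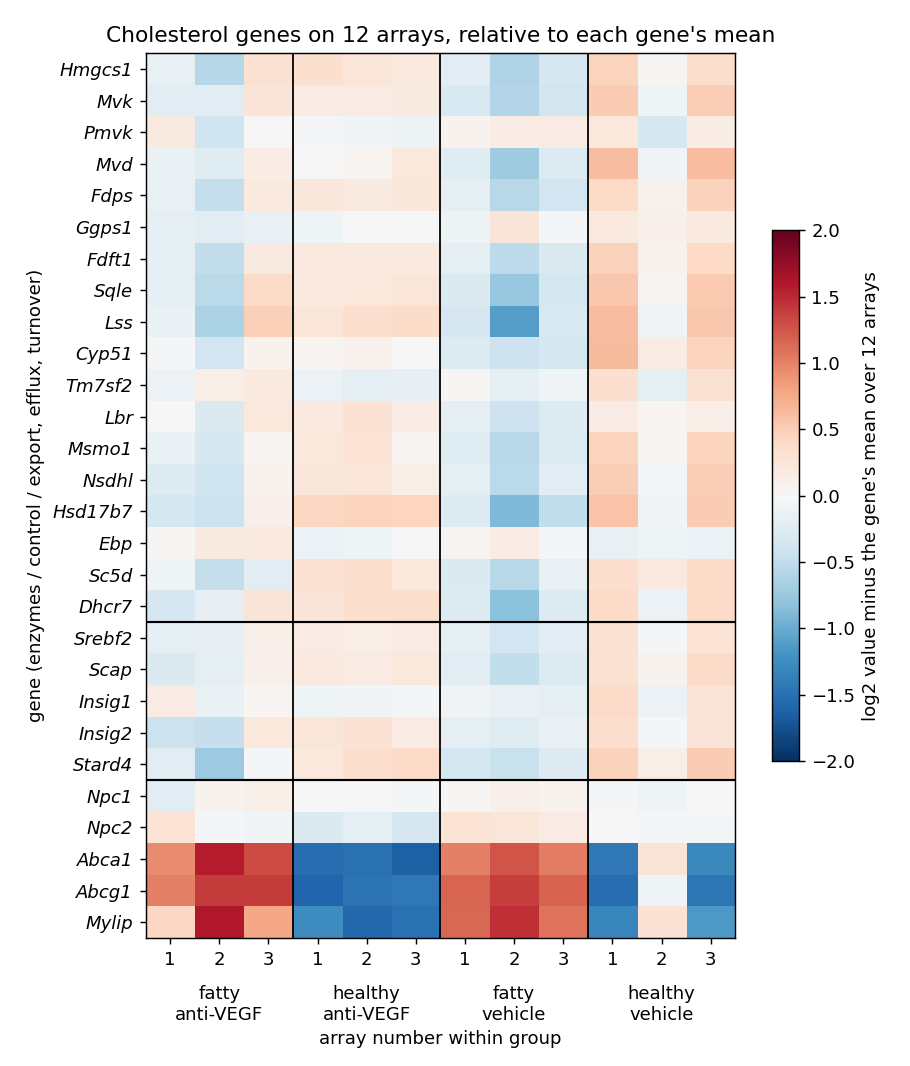
Each of the 28 genes (rows) on each of the 12 arrays (columns), coloured by the deposited log2 value minus the gene's mean over the 12 arrays; red is above that mean and blue below it. Lines part the 18 enzymes, 5 control genes and 5 export, efflux and turnover genes. Most enzymes are pale red in healthy liver and blue in fatty liver except on fatty liver anti-VEGF array 3, Abca1, Abcg1 and Mylip run the other way, and healthy liver vehicle array 2 is pale throughout.

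The fall reached nearly every stage of the route. In the mevalonate stage, Hmgcs1, the synthase that makes HMG-CoA, fell by 0.66 on the log2 scale, Mvk by 0.73 and Mvd by 0.81. Pmvk, the kinase between Mvk and Mvd, was at 7.40 to 7.50 in fatty liver and 7.00 to 7.53 in healthy liver and did not pass, with a log2 difference of 0.12 (95% interval -0.24 to 0.48). In the isoprenoid and squalene stage, Fdps, Fdft1 and Sqle fell by 0.68, 0.65 and 0.84, and Lss, which closes squalene epoxide into lanosterol, fell by 0.95, the largest fall of any enzyme measured. Ggps1, which leads isoprenoids away towards protein prenylation, had a difference of -0.13 (95% interval -0.33 to 0.08) and did not pass.

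In the sterol stage, Nsdhl fell by 0.62, Hsd17b7 by 0.88 and Dhcr7, the final reductase of one arm, by 0.67. Tm7sf2 and Lbr encode a pair of reductases for the same ring position. Lbr, also a protein of the inner nuclear membrane, fell by 0.40 on the log2 scale, the smallest of the 14 falls, and Tm7sf2 had a difference of -0.22 that did not pass (limma adjusted p = 0.199). Ebp, the isomerase of the route, was the 1 enzyme higher on all 3 fatty liver arrays, at 8.95, 9.05 and 8.87 against 8.74, 8.80 and 8.77 in healthy liver. Its log2 difference of 0.18 (95% interval 0.01 to 0.35) did not pass (limma adjusted p = 0.0785).

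Hmgcs1, Lss, Lbr, Nsdhl and Dhcr7 lost their calls when healthy liver vehicle array 1, healthy liver vehicle array 3 or fatty liver vehicle array 2 was left out. The number of enzymes called lower was 9 without array 1 or array 3 of healthy liver, 10 without array 2 of fatty liver and 15 without array 2 of healthy liver.

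**Figure D2:**
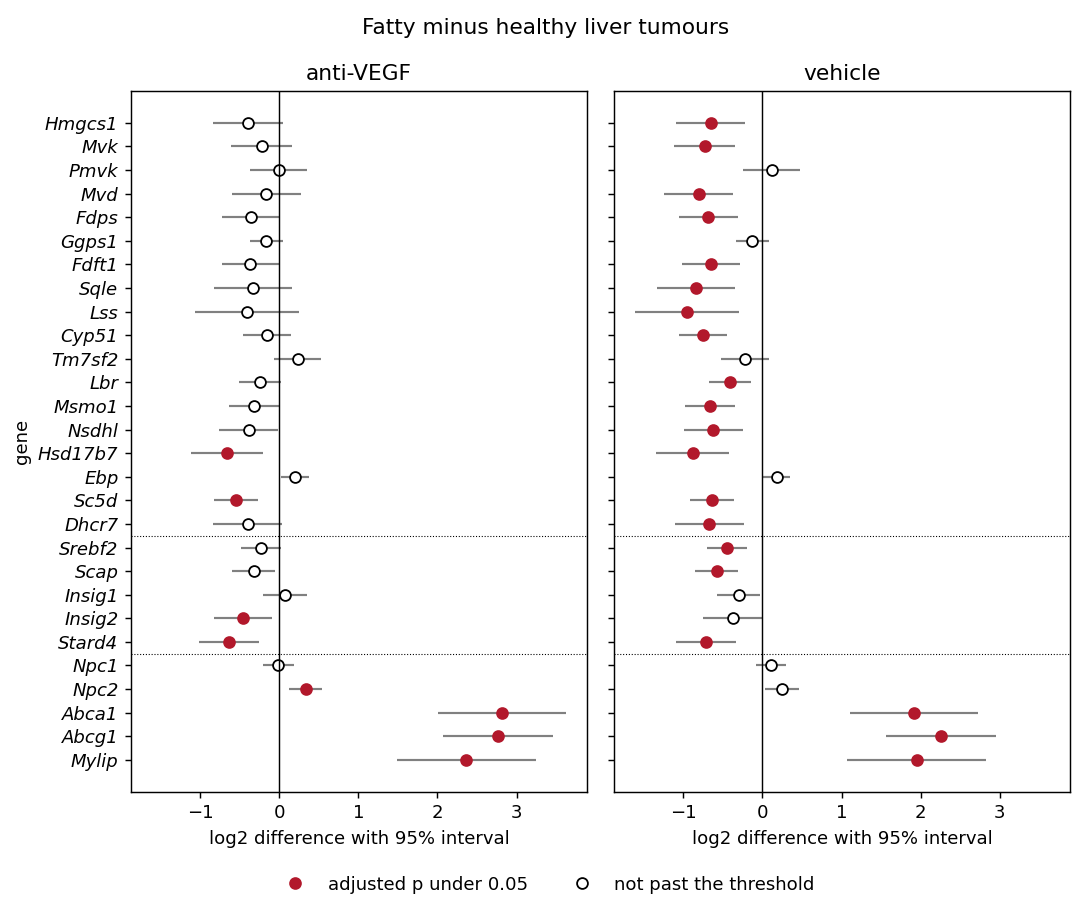
Log2 difference, fatty minus healthy liver, of each of the 28 genes under anti-VEGF and under vehicle, with its 95% interval; filled points passed limma's adjusted p of 0.05 and open points did not. Under vehicle 14 enzymes are filled left of 0, under anti-VEGF 2 are, and Abca1, Abcg1 and Mylip lie far right of 0 in both.

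Some control genes were also lower in fatty liver under vehicle. Of the 5, 3 fell and none rose, against 30.4% of all tested genes that fell, and their median log2 difference was -0.45 beside -0.12. Scap was at 8.17, 7.88 and 8.10 in fatty liver, against 8.68, 8.45 and 8.75 in healthy liver, and fell by 0.58 on the log2 scale (limma adjusted p = 0.00378). Stard4, which carries cholesterol between membranes and is itself an SREBP2 target, was at 7.38, 7.28 and 7.47 in fatty liver, against 8.20, 7.84 and 8.24 in healthy liver. It fell by 0.71 (limma adjusted p = 0.00699). Srebf2 was at 10.66, 10.46 and 10.62 in fatty liver and 11.16, 10.81 and 11.12 in healthy liver, a difference of -0.45 (limma adjusted p = 0.0101). The arrays of the 2 livers did not overlap for any of these 3 genes.

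Insig1 and Insig2 did not pass. Insig1, an SREBP2 target that feeds back on Scap, had a log2 difference of -0.30 (95% interval -0.58 to -0.02, limma adjusted p = 0.0674). Insig2 had one of -0.38 (limma adjusted p = 0.0811). None of the 5 control genes was called with nearly alike arrays averaged.

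The efflux genes showed the widest differences of the list. Abcg1 stood at 10.26, 10.47 and 10.27 on the fatty liver vehicle arrays, against 7.57, 9.01 and 7.64 on the healthy liver vehicle arrays. Abca1 stood at 9.35, 9.61 and 9.37 in fatty liver, against 6.92, 8.61 and 7.05 in healthy liver. Mylip stood at 8.93, 9.24 and 8.87 in fatty liver, against 6.49, 8.07 and 6.63 in healthy liver. The fatty liver arrays were close together for all 3 genes, and healthy liver array 2 lay above its companions without reaching the fatty liver range.

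Abcg1 averaged 10.33 ± 0.12 in fatty liver and 8.07 ± 0.81 in healthy liver (SD, n = 3 each), a 4.78-fold rise (log2 difference 2.26 ± 0.31 SE, limma adjusted p = 0.000476). Abca1 rose 3.77-fold (1.92 ± 0.37, limma adjusted p = 0.00243) and Mylip 3.86-fold (1.95 ± 0.40, limma adjusted p = 0.00327). Averaging the nearly alike arrays left Abcg1 alone of the 5 past the threshold, at 2.06 (adjusted p = 0.0486), and Abca1 was at 1.69 and Mylip at 1.75. With array 2 alone left in each liver, that is without the 4 arrays high in Xist, Abca1 differed by 1.00, Abcg1 by 1.46 and Mylip by 1.17. Those values set 1 array against 1, and the call of Abcg1 alone there assumes that each varies like the anti-VEGF groups.

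The lysosomal exporters moved little. Npc2, the soluble partner, was at 11.62, 11.59 and 11.51 in fatty liver and at 11.35, 11.32 and 11.32 in healthy liver under vehicle. Its groups did not overlap, yet its log2 difference of 0.25 missed the threshold (limma adjusted p = 0.0508). Npc1, the membrane partner, lay between 10.51 and 10.58 in fatty liver and between 10.41 and 10.48 in healthy liver, with a difference of 0.11 (limma adjusted p = 0.329). All 5 genes of the export, efflux and turnover group were thus higher on every fatty liver array than on any healthy liver array, as were 23.6% of all tested genes.

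**Figure D3:**
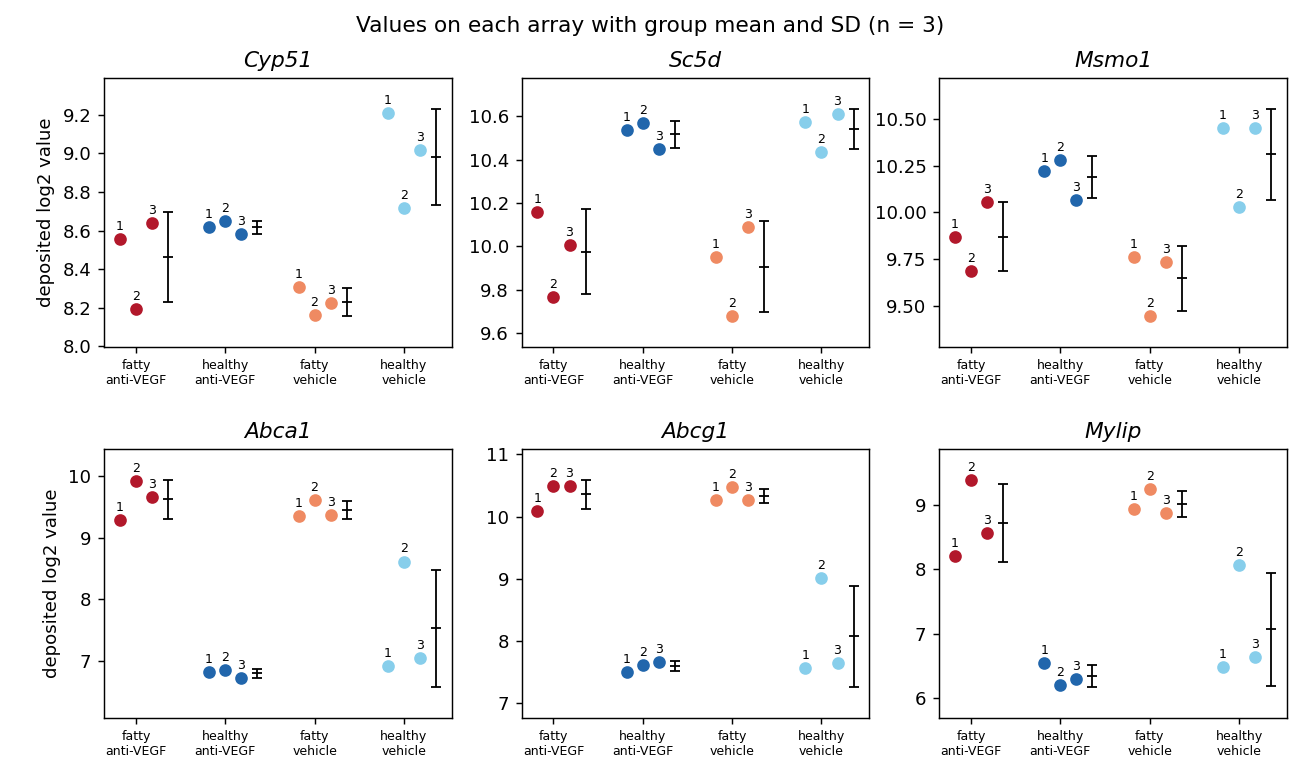
Deposited log2 values of Cyp51, Sc5d, Msmo1, Abca1, Abcg1 and Mylip on each array, with the group mean and SD (n = 3) beside the points; the numbers are array numbers, and each panel has its own vertical scale that does not start at 0. The 3 enzymes are lower in fatty than in healthy liver under vehicle, and the 3 efflux and turnover genes are higher in fatty liver under both treatments.

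Under anti-VEGF the efflux genes were again higher in fatty liver, while few enzymes passed. Of the 5 export, efflux and turnover genes, 4 rose, against 18.2% of all tested genes, and the same number lay higher on every fatty liver array than on any healthy liver array, against 21.9% of all tested genes. Abcg1 stood at 10.09, 10.49 and 10.49 in fatty liver, against 7.50, 7.61 and 7.66 in healthy liver under anti-VEGF, a 6.81-fold rise (log2 difference 2.77 ± 0.31 SE, limma adjusted p = 0.000113). Abca1 stood at 9.29, 9.92 and 9.65 in fatty liver, against 6.83, 6.86 and 6.72 in healthy liver, a 7.05-fold rise (2.82 ± 0.37, limma adjusted p = 0.00026). Mylip stood at 8.19, 9.38 and 8.56 in fatty liver, against 6.54, 6.21 and 6.30 in healthy liver, a 5.15-fold rise (2.37 ± 0.40, limma adjusted p = 0.00119). For these 3 genes the nearest arrays of the 2 livers were well over 1 log2 unit apart.

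Npc2 was at 11.63, 11.32 and 11.30 in fatty liver, against 11.06, 11.17 and 11.01 in healthy liver under anti-VEGF, and rose by 0.33 on the log2 scale (limma adjusted p = 0.0175). That call was lost when healthy liver anti-VEGF array 1 or 3 was left out. Npc1 had a difference of -0.01 and did not pass. With nearly alike arrays averaged, healthy liver under anti-VEGF is 1 unit whose spread is taken from the other groups. In that fit Abcg1 had an adjusted p of 0.0399, Abca1 had the same difference with an adjusted p of 0.0547, Mylip one of 0.107 and Npc2 one of 0.313.

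Of the 18 enzymes, 2 fell under anti-VEGF and none rose, against 27.6% of all tested genes that fell and 45.8% called in either direction. Sc5d was at 10.16, 9.76 and 10.01 in fatty liver, against 10.53, 10.57 and 10.45 in healthy liver, a log2 difference of -0.54 ± 0.13 (SE, limma adjusted p = 0.00652). Hsd17b7, which reduces a ketone on the sterol ring, was at 9.08, 9.01 and 9.54 in fatty liver, against 9.86, 9.88 and 9.86 in healthy liver (-0.66 ± 0.21, limma adjusted p = 0.0255). All fatty liver arrays lay below all healthy liver arrays for both genes, as they did for 7 of the 18 enzymes and 36.6% of all tested genes. The median log2 difference of the enzymes was -0.33, beside -0.13 for all tested genes. Cyp51, the enzyme with the smallest p under vehicle, differed by -0.15 (95% interval -0.46 to 0.15), and Lss by -0.41 (95% interval -1.07 to 0.25).

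Fatty liver anti-VEGF array 3 set much of this count. It was the highest of the 6 fatty liver arrays for 15 of 18 enzymes, where it was highest for 39.8% of all tested genes. Lss, for example, read 8.63, 8.13 and 9.25 on the 3 fatty liver anti-VEGF arrays, and only the third was above the mean of healthy liver under anti-VEGF, 9.08 ± 0.07 (SD, n = 3). Without that array 10 enzymes fell under anti-VEGF, and without any 1 healthy liver anti-VEGF array, or without fatty liver anti-VEGF array 1 or 2, only 1 did. None passed once nearly alike arrays were averaged. With replicate number as a block 5 were lower, and 16 were in a fit that weights arrays by their match to their group.

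Of the control genes, Stard4 and Insig2 fell under anti-VEGF. Stard4 was at 7.52, 7.00 and 7.71 in fatty liver, against 7.94, 8.07 and 8.11 in healthy liver (log2 difference -0.63 ± 0.17 SE, limma adjusted p = 0.0137). Insig2 was at 7.38, 7.34 and 8.01 in fatty liver, against 8.04, 8.09 and 7.96 in healthy liver. Its groups overlapped at array 3 of fatty liver, and its difference of -0.46 (limma adjusted p = 0.0442) lost its call in 10 of the 12 fits that left out an array. Scap had a difference of -0.32 (limma adjusted p = 0.0504), Srebf2 one of -0.23 and Insig1 one of 0.08. The genes called the same way under both treatments were Hsd17b7, Sc5d and Stard4, all lower, and Abca1, Abcg1 and Mylip, all higher, in fatty liver.

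The list means show the same arrays apart. The mean of the 18 enzymes was 9.08, 8.89 and 9.37 in fatty liver and 9.36, 9.39 and 9.36 in healthy liver under anti-VEGF. Under vehicle it was 9.03, 8.74 and 8.98 in fatty liver and 9.61, 9.20 and 9.59 in healthy liver. The mean of the 5 export, efflux and turnover genes was 9.89, 10.33 and 10.12 in fatty liver and 8.48, 8.47 and 8.43 in healthy liver under anti-VEGF, and 10.13, 10.30 and 10.11 against 8.55, 9.48 and 8.63 under vehicle. Within each list, healthy liver vehicle array 2 lay between its companions and the fatty liver vehicle arrays.

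Markers of macrophages moved with the efflux genes. Of 15 measured macrophage markers, 14 rose in fatty liver under each treatment, against 18.2% of all tested genes under anti-VEGF and 19.2% under vehicle, with a median log2 difference of 2.28 under anti-VEGF and 1.67 under vehicle, and Cd163, also on that list, was above the dim-gene limit on no array. Their mean ranged from 11.18 to 11.47 in fatty liver and from 9.24 to 9.29 in healthy liver under anti-VEGF, and from 11.39 to 11.46 in fatty liver and from 9.41 to 10.33 in healthy liver under vehicle. The highest healthy liver value, 10.33, was that of vehicle array 2, the array where Abca1, Abcg1 and Mylip were highest. Of 11 T and NK cell markers, 8 rose under anti-VEGF and 11 under vehicle, and of 7 neutrophil markers 3 rose under each. The mean of the T and NK markers was 5.56 on fatty liver anti-VEGF array 3, against 8.16 and 7.80 on arrays 1 and 2. Healthy liver vehicle array 2 also stood apart in endothelial markers, at 9.57 against 6.32 and 6.39, and in fibroblast markers, at 10.24 against 7.57 and 7.51 on arrays 1 and 3. In bulk tissue, fewer cells of a type and less RNA per cell cannot be told apart, and the part of these cells in the efflux values was not tested.

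Markers of dividing cells were lower in fatty liver under vehicle, as the enzymes were. Of 11 measured, 3 fell under anti-VEGF, a share near the 27.6% of all tested genes, and 10 fell under vehicle, against 30.4%, with median log2 differences of -0.40 and -0.71. Their mean was 9.62, 9.79 and 10.30 in fatty liver and 10.30, 10.30 and 10.29 in healthy liver under anti-VEGF, and 9.69, 9.26 and 9.67 in fatty liver and 10.35, 10.11 and 10.33 in healthy liver under vehicle. Fatty liver anti-VEGF array 3, highest for most enzymes, was the highest fatty liver array for all 11 dividing markers. Fatty liver vehicle array 2 was the lowest fatty liver array for all 11 and for 15 of 18 enzymes, against 25.1% of all tested genes. Healthy liver vehicle array 2 was the lowest healthy liver array for 14 of 18 enzymes, against 45.9% of all tested genes. The part of cell division in the enzyme values was not tested.

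**Figure D4:**
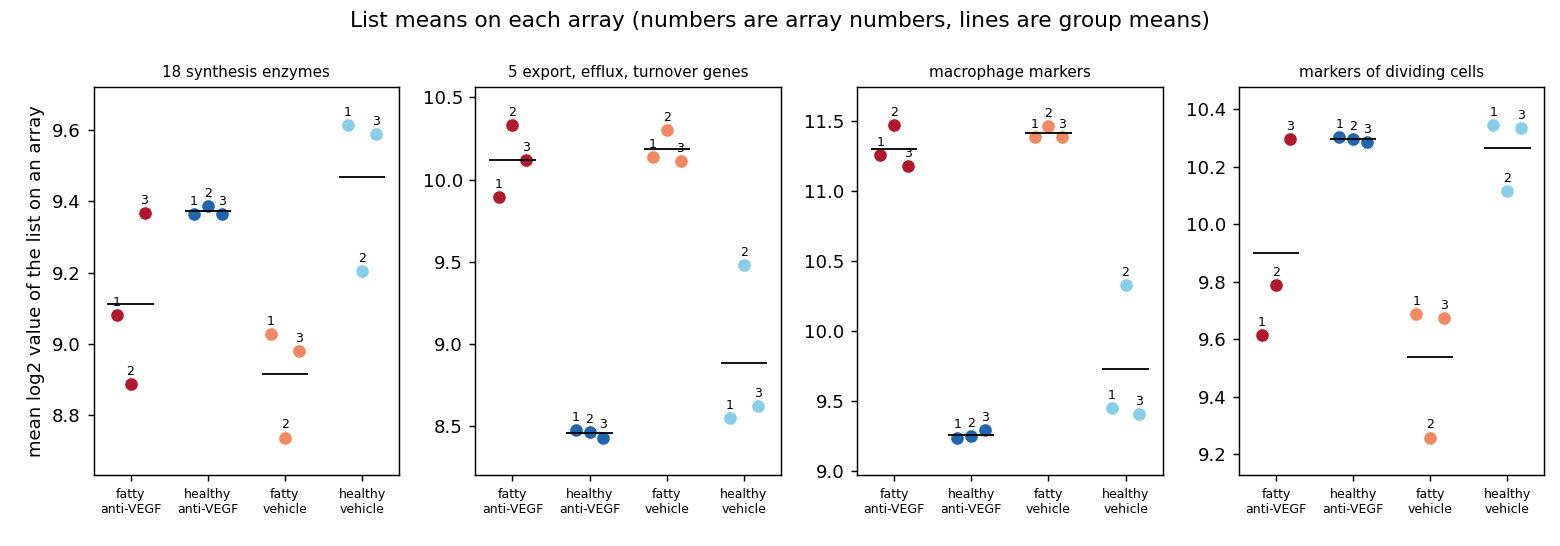
Mean log2 value on each array of the 18 enzymes, the 5 export, efflux and turnover genes, the macrophage markers and the markers of dividing cells; numbers are array numbers, lines are group means, and the vertical scales differ and do not start at 0. Array 2 of both vehicle groups and fatty liver anti-VEGF array 3 leave their companions in the enzyme panel and in the panel of dividing cells. Healthy liver vehicle array 2 also does so in the efflux and macrophage panels.

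Treatment moved none of the 28 genes past the threshold in either liver, but the calls depended on the fit. A fit that weights arrays by how well they match their group called Pmvk, Ggps1, Insig2, Stard4 and Npc2 lower and Abca1 higher in fatty liver, and 6 enzymes with Insig1 and Npc2 lower in healthy liver. Its weights were 0.20, 3.80 and 0.14 on fatty liver anti-VEGF arrays 1, 2 and 3, so array 2 set most of that group's mean. Vehicle array 2 had a weight of 0.24 in fatty liver and 0.15 in healthy liver, against 1.28 to 3.66 on vehicle arrays 1 and 3. In fatty liver, anti-VEGF against vehicle called 0 of 28 genes by limma, with 1 at an unadjusted p under 0.05, while 0.00753% of all tested genes were called. The smallest adjusted p was 0.795. The enzymes had a positive difference in 16 of 18 cases, with a median of 0.23 beside 0.01 for all tested genes, and 2 of them lay higher on all 3 anti-VEGF arrays than on any vehicle array, against 3.07% of all tested genes. Ggps1 was the gene at the unadjusted p of 0.0328, at 8.57, 8.52 and 8.59 under anti-VEGF, with a mean of 8.79 ± 0.19 (SD, n = 3) and a lowest value of 8.65 under vehicle in fatty liver. It lay lower without overlap, as did 4.99% of all tested genes. Sc5d differed by 0.07, Abca1 by 0.18, Abcg1 by 0.03 and Mylip by -0.30, the last with a 95% interval from -1.18 to 0.58.

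In healthy liver, anti-VEGF against vehicle also called 0 of 28 genes and 0% of all tested genes by limma, with 3 of the 28 at an unadjusted p under 0.05 and a smallest adjusted p of 0.512. Those were Cyp51 with a log2 difference of -0.36, Npc2 with -0.24 and Tm7sf2 with -0.31. Cyp51 read 8.62, 8.65 and 8.58 under anti-VEGF, against 9.21, 8.72 and 9.02 under vehicle, lower without overlap, as were 11.7% of all tested genes. The enzymes had a negative difference in 14 of 18 cases, with a median of -0.11 beside 0.01 for all tested genes. Abca1 differed by -0.73, Abcg1 by -0.48 and Mylip by -0.72, with vehicle array 2 above every other array of healthy liver for all 3. Without the 4 vehicle arrays high in Xist, which leaves vehicle array 2 alone, Abca1 fell by 1.81 and Abcg1 by 1.42 under anti-VEGF in healthy liver (limma adjusted p = 0.00794 and 0.00902). The p-values assume that this 1 array, which stands apart, varies like the anti-VEGF groups.

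Whether treatment acted differently in the 2 livers was tested as the difference of the treatment differences, fatty minus healthy. None of the 28 genes and 0% of all tested genes passed by limma, 3 of the 28 were at an unadjusted p under 0.05, and the smallest adjusted p was 0.964. Cyp51 had the smallest unadjusted p, with a difference of 0.60 ± 0.20 (SE, 95% interval 0.16 to 1.03, limma unadjusted p = 0.0119), followed by Tm7sf2 at 0.45 and Mvd at 0.64. The enzymes were positive in 16 of 18 cases, with a median of 0.28 beside 0.02 for all tested genes. The weighted fit called Cyp51, Mvd, Mvk, Tm7sf2, Insig1 and Abca1 here, all positive, with limma adjusted p of 0.00574 for Tm7sf2 and 0.0185 to 0.0437 for the others. In that fit array 2 set most of the mean of fatty liver under anti-VEGF. In the unweighted fit, the drop in the number of enzymes called, 14 under vehicle and 2 under anti-VEGF, is not shown to be a difference between treatments.

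**Figure D5:**
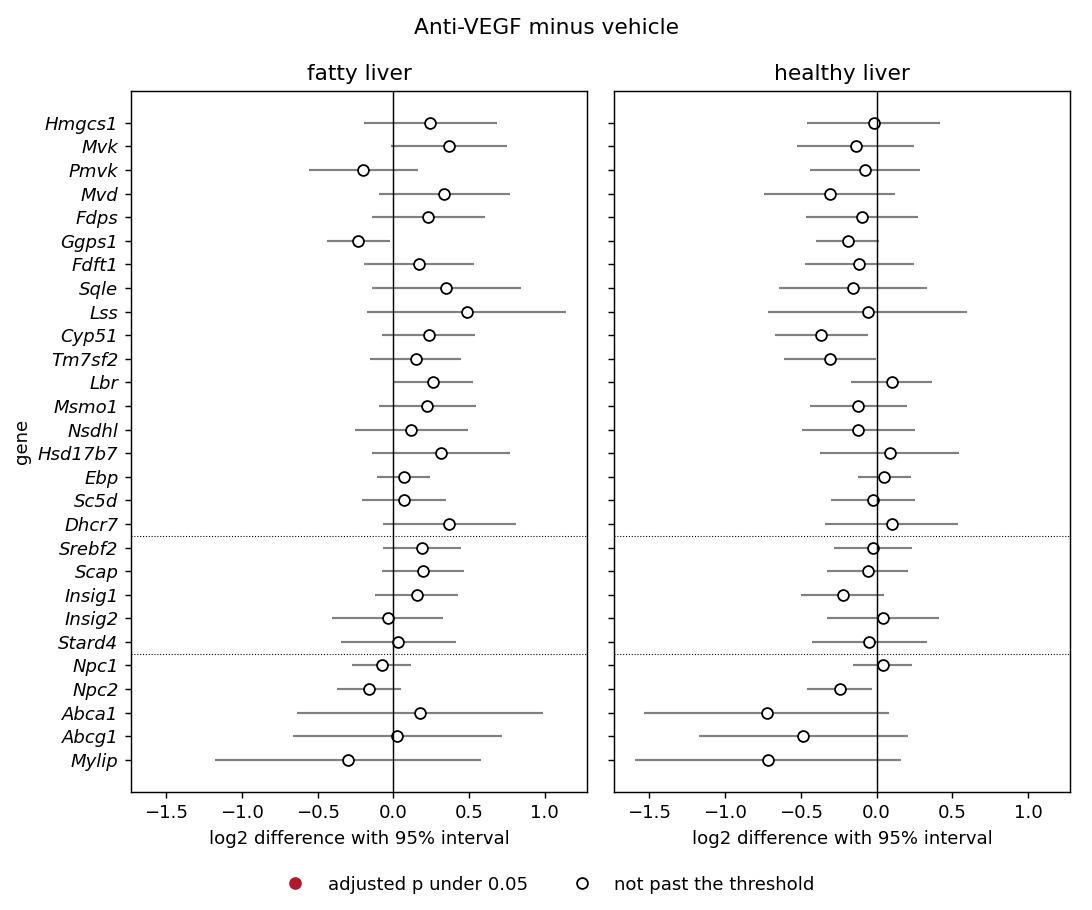
Log2 difference, anti-VEGF minus vehicle, of each of the 28 genes in fatty and in healthy liver, with its 95% interval; every point is open because none passed limma's adjusted p of 0.05. Most enzymes lie right of 0 in fatty liver and left of 0 in healthy liver, and the intervals of Abca1, Abcg1 and Mylip are the widest.

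Other genes of the pathway were counted beside the shares of all tested genes, which were 18.2% higher and 27.6% lower under anti-VEGF and 19.2% higher and 30.4% lower under vehicle. Of 7 genes of sterol sensing and reductase turnover, 3 fell under anti-VEGF, 2 fell under vehicle and none rose, and the share under vehicle was near that of all genes. Mbtps1 and Mbtps2, the Golgi proteases that cut SREBP2 free, were among them. Mbtps1 differed by -0.41 under anti-VEGF and -0.67 under vehicle, and Mbtps2 by -0.47 and -0.66. In the non-sterol isoprenoid branch, 3 of 11 genes fell under anti-VEGF and 2 under vehicle, no more than the share of all genes, with Fntb, the beta subunit of protein farnesyltransferase, at -0.89 and -0.93. These calls were lost with nearly alike arrays averaged.

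Of 9 genes for lipoprotein and scavenger receptors and their partners, 6 rose under each treatment, above the shares of all genes. Sort1, a sorting receptor, rose by 2.69 under anti-VEGF and by 2.54 under vehicle, and Msr1, the macrophage scavenger receptor, by 2.45 and 1.92. Lrp8 went the other way under vehicle, at -0.54, and did not pass under anti-VEGF. Of 15 genes of sterol transport and ester handling, 6 rose and 3 fell under anti-VEGF, and 7 rose and 3 fell under vehicle. Stard3, a late-endosomal sterol carrier, rose by 1.11 under anti-VEGF and 0.89 under vehicle, and Lipe, hormone-sensitive lipase, by 0.98 and 1.04. Cav1, the caveolar coat protein, was lower, at -0.66 under anti-VEGF and -0.75 under vehicle.

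In the liver X receptor list, most called genes were higher in fatty liver. Of 9 further targets and partners measured, 5 rose and 1 fell under each treatment. The same 5 rose under both, but the gene that fell was not the same. Nr1h3, the gene of liver X receptor alpha, averaged 8.73 ± 0.29 in fatty liver and 7.18 ± 0.26 in healthy liver under anti-VEGF, and 8.60 ± 0.13 against 7.54 ± 0.33 under vehicle (SD, n = 3 each). Its log2 differences were 1.55 and 1.07. Smpdl3a, a phosphodiesterase known as a target of the receptor in human macrophages, rose by 2.91 under anti-VEGF and by 2.26 under vehicle, and Apoc2, an apolipoprotein, by 1.53 and 1.51. Scd1, the stearoyl desaturase that both liver X receptors and SREBP1 drive, fell by 1.10 under vehicle and was not called under anti-VEGF. Apoa1 was the gene that fell under anti-VEGF, a call lost in 5 of the 12 fits that left out an array. The list thus held genes called in either direction.

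Among 8 genes that make or change oxysterols, 3 rose and 2 fell under anti-VEGF, and 5 rose and 1 fell under vehicle. Cyp27a1, which makes 27-hydroxycholesterol, averaged 8.61 ± 0.16 in fatty liver and 6.44 ± 0.01 in healthy liver under anti-VEGF, and 8.78 ± 0.10 against 6.92 ± 0.23 under vehicle (SD, n = 3 each). It rose by 2.17 and 1.87 on the log2 scale, while Cyp39a1, an oxysterol hydroxylase, was lower at -0.67 and -1.03. With nearly alike arrays averaged, Sort1, Stard3, Nr1h3, Smpdl3a, Apoc2 and Cyp27a1 were still called under both treatments, Msr1 under anti-VEGF and Lipe under vehicle. None of these 6 lists held a gene called for treatment or for its difference between livers by limma.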

How the data were processed

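RNA from 12 tumours was measured on single-colour Affymetrix whole-transcript arrays, 3 per group. The deposited values, 1 column per array, lie on a log2 scale as read from their range; per the submitters' processing notes the authors used Affymetrix Expression Console. Its version, the normalization, the summarisation and the build used are not stated there. Column medians were 4.88 to 4.99, and whether values were centred is not stated. The number of arrays limits the precision.

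Of 41345 rows, 23521 had 1 gene symbol in the platform annotation, 1814 several and 16010 none, and 23328 matched a RefSeq gene number. For 1082 genes with several rows, Scap and Npc1 among them, the row with the highest mean was taken. Genes above the table median of 4.93 on at least 3 arrays were tested. Group means over all 12 arrays were fitted with limma 3.58.1 (lmFit, eBayes) in R 4.3.3, with 8 residual and 2.40 prior degrees of freedom, 5 contrasts and Benjamini-Hochberg adjustment over 13286 genes at 0.05. The procedure was tested on simulated data whose arrays varied independently, a setting that does not cover nearly alike arrays. No replicate block was used, as no label says that a number marks a shared source. Same-numbered fatty and healthy liver vehicle arrays deviated together (r = 0.536, 0.701 and 0.549). Across numbers, r was also 0.574 for fatty liver vehicle array 1 with healthy liver vehicle array 3, and 0.553 for the reverse. In fatty liver, same-numbered anti-VEGF and vehicle arrays had r of -0.486, 0.106 and 0.472. For the livers under anti-VEGF and for treatment in healthy liver, r was -0.039 to 0.019.

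The members and lists were chosen with earlier results of these data known. All measured members are described, with every array's value for up to 3 called members per role group with the smallest adjusted p. Alternatives are given in the closing section.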

Additional observations from a re-analysis of the deposited data

How the results depend on the processing

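Leaving out 1 array at a time gave 9 to 15 enzymes lower under vehicle and 1 to 10 under anti-VEGF, and 3 to 4 export, efflux and turnover genes higher in each liver comparison. No enzyme or efflux gene was called for treatment or its difference between livers in any of those 12 fits. With nearly alike arrays averaged, 0 enzymes were lower under either treatment and 1 efflux gene was higher under each. A group left with 1 unit or array is assumed to vary like the others. Fewer units enter that fit, and over all tested genes it called 721 under vehicle and 510 under anti-VEGF, beside 6595 and 6084 with 12 arrays. Without the vehicle arrays high in Xist, 1057 of all tested genes, 0 enzymes and 1 efflux gene passed under vehicle, and 2 efflux genes among 754 of all tested genes passed for treatment in healthy liver. Array weights raised the calls. Under anti-VEGF 16 enzymes were lower and Ebp and Tm7sf2 higher, among 9884 of all tested genes called. Under vehicle 16 enzymes were lower and Ebp higher. For treatment in fatty liver 2 enzymes and 2 export or efflux genes (Npc2 and Abca1) passed, and in healthy liver 6 and 1 (Npc2). These were among 1848 and 1661 of all tested genes. For the difference between livers 4 enzymes and 1 efflux gene (Abca1) passed, among 1477 of all tested genes. Treatment called 1 of all tested genes in fatty liver and 0 in healthy liver, and 0 to 11 and 0 to 41 with 1 array left out. In healthy liver it called 3 with the filter set to all 12 arrays and 9 with a trended robust prior, and without the vehicle arrays high in Xist 19 genes passed for the difference between livers. With weights Stard4 turned to -0.39 for treatment in fatty liver, from 0.03 without them; the cause was not tested. With replicate number as a block 5 enzymes were lower under anti-VEGF, and no count of enzymes or efflux genes under vehicle changed. The other alternatives, which were the dim-gene filters, quantile normalization, the mean of a gene's rows and a trended robust prior, left these counts within 1.5 times.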
